A study of Mus musculus with 9 samples.

Results

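The immediate-early genes described here are 10 mouse genes: Fos, Fosb, Jun, Junb and Jund (subunits of the AP-1 transcription factor), Egr1, Nr4a1, Dusp1, Ier2 and Ier5. They were chosen by name, looked up by gene symbol among the 53380 rows of each count table, and all 10 were found. Of these, 9 passed the filter on low counts that left 14098 genes for testing, and Fosb did not. RNA was sequenced from a mouse line of T-ALL (T cell acute lymphoblastic leukaemia), whose human MYC transgene doxycycline shuts down. The cells came from tumours of FVB/N mice carrying EμSRα-tTA and tet-O-MYC. In this system the lymphoid EμSRα promoter drives tTA, a transactivator that switches on the MYC transgene and is blocked by doxycycline. Every library of all 3 groups carries both transgenes. MYC on cells were mock treated (0 pg/mL doxycycline), MYC intermediate cells received 20 pg/mL and MYC off cells 500 pg/mL, each for 48 hours and with 3 libraries per group. The cells grew in serum-containing RPMI medium, and the labels name no acute stimulus, so the values below are levels in growing culture. The comparisons ask how these genes stand at each of the 3 MYC levels.

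Immediate-early genes are switched on within minutes of a growth factor, antigen or stress signal, without new protein synthesis, because the transcription factors that act on them (SRF with its ETS-family partners, and CREB) are already present and are activated by kinases. Their mRNAs are short-lived. Fos and Jun family proteins pair through leucine zippers to form AP-1, EGR1 is a zinc finger factor and NR4A1 an orphan nuclear receptor that T cells induce upon antigen receptor signalling. DUSP1 is a phosphatase that inactivates MAP kinases and so acts against the signal that induces it.

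Library totals ran from 18705516 to 39678799 counts, at which 3 counts correspond to 0.0756 to 0.16 CPM (counts scaled to a common library total). Such limits cover counting error only. The human MYC transgene stood at 1260 ± 75.4 CPM with MYC on, 408.3 ± 23.0 CPM at intermediate MYC and 3.785 ± 0.454 CPM with MYC off (SD, n = 3 each). All 12 T cell markers examined (such as Cd3e, Lck and Thy1) were expressed, and their summed level was 4101 to 4239 CPM with MYC on, 6939 to 7141 CPM at intermediate MYC and 9145 to 9441 CPM with MYC off. It rose as MYC was withdrawn, alongside several genes described below, and its part in their changes was not tested. Among markers of other cells, Lyz2, Adgre1 and Cd14 (myeloid), Cd79b and Ms4a1 (B cell), Ncr1 and Klrk1 (NK), Pf4 and Ppbp (erythroid and platelet) and Col3a1 and Cdh5 (stromal and endothelial) had no count in any library. Of these other markers, 6 of 8 myeloid, 4 of 5 B cell, 3 of 5 NK, 5 of 5 erythroid and platelet and 5 of 6 stromal and endothelial genes stayed under 1 CPM in every library. Several of these sums moved with MYC through single genes, and their part in the members' changes was not tested. The NK sum was 5.41 to 6.26 CPM with MYC on, 27.0 to 31.5 at intermediate MYC and 49.5 to 60.5 with MYC off, carried by the cytotoxic genes Prf1 (log2 fold change of MYC on over MYC off -3.21) and Gzma (-3.21). The stromal and endothelial sum was 79.9 to 87.4, 151.5 to 169.4 and 200.7 to 218.8 CPM, carried by Pecam1 (-1.27). The myeloid sum was 26.9 to 31.3, 32.5 to 36.3 and 41.2 to 44.2 CPM, with Itgam at -2.46 (called). Csf1r, which supplied most of this sum with MYC on, was called the other way at 0.38 (edgeR adjusted p = 0.000818). It averaged 24.76 CPM with MYC on and 19.55 CPM with MYC off. The B cell sum went down, at 77.2 to 94.7, 40.7 to 45.1 and 32.0 to 33.7 CPM, carried by Ighm (1.41). The erythroid and platelet sum stayed at or below 0.0681 CPM.

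Promoter sequence is shown for 5 members, 3 whose mRNA was lower in MYC on than in MYC off (Fos, Nr4a1 and Dusp1) and 2 that were not (Junb and Ier5), so that the letters upstream can be read beside the values. RefSeq's promoter table (GRCm38.p6) matched 8 of the 10 members, all but Egr1 and Ier2. Each stretch holds the 250 bases before the RefSeq start site on the coding strand, 5′ to 3′. Capitals mark TGACG or its reverse CGTCA (a partial CRE, the element bound by CREB), the full CRE TGACGTCA, the E-box CACGTG (the element read by MYC with MAX), TATAAA and CCAAT or its reverse ATTGG. Fos lies at chr12:85473640-85473889 (+), Nr4a1 at chr15:101266596-101266845 (+), Dusp1 at chr17:26508473-26508722 (-), Junb at chr8:84978749-84978998 (-) and Ier5 at chr1:155099637-155099886 (-).
Fos: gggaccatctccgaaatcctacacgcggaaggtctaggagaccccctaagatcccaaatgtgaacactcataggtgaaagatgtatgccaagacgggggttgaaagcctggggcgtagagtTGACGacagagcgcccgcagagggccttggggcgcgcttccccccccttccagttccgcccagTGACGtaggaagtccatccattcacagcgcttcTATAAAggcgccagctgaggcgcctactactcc
Nr4a1: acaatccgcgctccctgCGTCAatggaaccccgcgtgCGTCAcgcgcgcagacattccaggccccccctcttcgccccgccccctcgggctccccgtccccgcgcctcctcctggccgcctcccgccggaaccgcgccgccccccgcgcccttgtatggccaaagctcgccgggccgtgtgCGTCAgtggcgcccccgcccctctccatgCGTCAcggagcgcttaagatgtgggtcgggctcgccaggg
Dusp1: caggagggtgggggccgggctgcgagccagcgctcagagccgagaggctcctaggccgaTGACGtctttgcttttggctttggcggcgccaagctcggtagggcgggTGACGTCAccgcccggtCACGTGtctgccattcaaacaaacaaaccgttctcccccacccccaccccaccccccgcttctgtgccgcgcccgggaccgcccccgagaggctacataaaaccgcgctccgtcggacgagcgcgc
Junb: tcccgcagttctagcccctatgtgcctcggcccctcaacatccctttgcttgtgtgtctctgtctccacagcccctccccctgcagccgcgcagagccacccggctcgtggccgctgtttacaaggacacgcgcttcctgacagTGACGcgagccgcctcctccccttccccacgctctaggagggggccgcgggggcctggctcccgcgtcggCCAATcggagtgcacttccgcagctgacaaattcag
Ier5: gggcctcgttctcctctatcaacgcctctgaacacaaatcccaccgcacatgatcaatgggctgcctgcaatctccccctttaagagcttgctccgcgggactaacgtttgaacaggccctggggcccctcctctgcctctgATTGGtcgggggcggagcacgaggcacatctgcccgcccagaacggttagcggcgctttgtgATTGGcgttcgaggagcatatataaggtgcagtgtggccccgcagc

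Among the 8 matched promoters, the CRE core TGACG occurred in Fos, Fosb, Junb, Dusp1 and Nr4a1, that is in 5 of 8, against 17.8% of 32851 windows of this length, with both strands searched. The windows were not matched for GC content, which was 58.4% to 74.4% in these 5 promoters and 47.6% to 61.2% in Jun, Jund and Ier5. Nr4a1 held 4 such CRE cores, which began 233, 213, 69 and 40 bases before the start. Fos held 2, at 129 and 66 bases, the latter upstream of a TATAAA at 33 bases. Only Dusp1 of the 8 held the full CRE TGACGTCA (at 143 bases, counted also as 2 overlapping CRE cores), which 1.55% of windows hold, and only Dusp1 held the E-box CACGTG (at 126 bases), which 6.02% of windows hold. CCAAT occurred in Jun, Junb and Ier5, against 33.8% of windows, and Ier5 held it at 108 and 46 bases. No window of the 8 held the AP-1 site TGACTCA (4.46% of windows) or the EGR site GCGTGGGCG (0.536%). None held a CArG box, the element read by SRF (1.47%). Sequence further upstream was not searched, and Egr1 and Ier2 had no window. The absence therefore holds for these short windows only, and whether the members have such sites elsewhere was not tested. Jund is left out of the printed set since its RefSeq start lies 1210 bases from that of its only GENCODE transcript. The RefSeq starts of Fos, Nr4a1, Dusp1 and Ier5 each coincide with a GENCODE transcript start, and that of Junb lies 30 bases from one, although other transcripts carry the gene models of Dusp1 and Nr4a1 53656 and 12577 bases further upstream. These matches describe letters and not bound sites.

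Most of the tested members were less abundant at full MYC. Between MYC on and MYC off, 6 of the 9 tested members were called at an adjusted p under 0.01 (edgeR quasi-likelihood test), against 54.9% of all genes tested. Egr1, Dusp1, Jund, Fos and Nr4a1 rose as MYC was withdrawn, 5 in all, where 27.5% of all genes tested were called in that direction. Ier5 alone of the 9 was called lower in MYC off, a direction taken by 27.4% of all genes tested. The median log2 fold change (MYC on over MYC off) of the 9 was -0.56, and that of all genes tested was -0.03. The groups did not overlap for 8 of the 9, against 70.0% of all genes tested. Overlap was judged on CPM without the further scaling used in the fits. At an adjusted p under 0.05, 8 of the 9 were called, against 64.6%. In this bulk RNA, a smaller share of cells expressing a gene and less of its RNA per cell cannot be told apart. Levels are also shares of each library's counts. A rise or fall is therefore relative to the other RNA of the library, and amounts per cell were not measured.

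**Figure D1:**
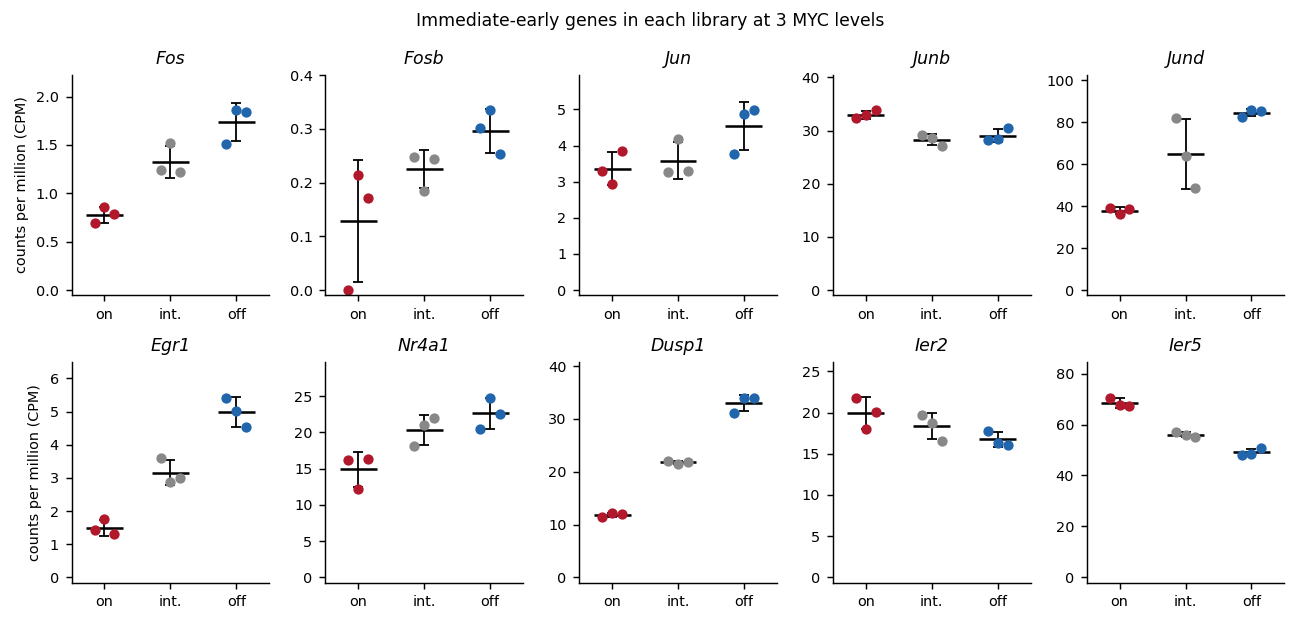
Level of each member in CPM (vertical axes, each from 0) in the 3 libraries of MYC on, MYC intermediate (int.) and MYC off, where points are libraries, long bars group means and error bars the SD. Dusp1 climbs from 11.4 to 12.2 CPM with MYC on to 31.2 to 34.0 CPM with MYC off with no overlap, whereas Ier5 descends and Jund scatters widely in MYC intermediate.

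Fos, the founding partner of AP-1, was scarce and rose. Its gene (ENSMUSG00000021250.13, mm10 chromosome 12, 85473890 to 85477273, plus strand) had 14, 16 and 23 counts in MYC on replicates 1 to 3, or 0.689, 0.855 and 0.784 CPM. MYC intermediate held 1.24, 1.52 and 1.22 CPM, and MYC off 1.51, 1.86 and 1.84 CPM. All MYC on libraries lay below all others, while the highest MYC intermediate library slightly exceeded the lowest MYC off library. Fos was 2.17-fold higher in MYC off than in MYC on (log2 change of MYC on over MYC off -1.12 with SE 0.24, edgeR adjusted p = 0.000701). MYC on against MYC intermediate gave -0.78 ± 0.25 (edgeR adjusted p = 0.0172) and MYC intermediate against MYC off gave -0.34 ± 0.21 (edgeR adjusted p = 0.232), neither of them called.

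Fosb, its close relative, was near the detection limit. The gene (ENSMUSG00000003545.3, chromosome 7, 19302696 to 19310051, minus strand) collected 58 counts over the 9 libraries: 0, 4 and 5 with MYC on, 8, 5 and 7 at intermediate MYC and 12, 9 and 8 with MYC off. As CPM these were 0, 0.214 and 0.170, then 0.248, 0.185 and 0.244, then 0.302, 0.334 and 0.253. The MYC off libraries lay above the MYC on libraries, and no model was fitted. The count of 0 in MYC on replicate 1 allows a level of up to 0.148 CPM. The exact two-sided permutation p between MYC on and MYC off was 0.1, which is the lowest this design of 3 against 3 allows.

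Jun itself was low and was called in no comparison. Its 3 groups (ENSMUSG00000052684.4, chromosome 4, 95049034 to 95052222, minus strand) held 3.30, 2.94 and 3.85 CPM with MYC on, 3.26, 4.18 and 3.31 CPM at intermediate MYC and 3.78, 4.86 and 4.97 CPM with MYC off. The groups overlapped in each of the 3 comparisons. The log2 fold change of MYC on over MYC off was -0.38 (95% interval -0.74 to -0.014, edgeR adjusted p = 0.0639).

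Junb, the AP-1 subunit often described as opposing Jun in growth control, was abundant and was called in no comparison. It (ENSMUSG00000052837.6, chromosome 8, 84974484 to 84978718, minus strand) stood at 32.3, 32.9 and 33.8 CPM with MYC on, 29.2, 28.5 and 27.1 CPM at intermediate MYC and 28.3, 28.4 and 30.5 CPM with MYC off. MYC on lay above the other groups without overlap, and the other two overlapped. The differences were small, at a log2 fold change of 0.22 ± 0.07 over MYC off (edgeR adjusted p = 0.0174) and 0.21 ± 0.07 over MYC intermediate (edgeR adjusted p = 0.0286), and neither was called.

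Jund, the Jun family member that resting cells express most, rose. It (ENSMUSG00000071076.6, chromosome 8, 70698949 to 70700616, plus strand) held 39.3, 36.1 and 38.4 CPM with MYC on and 82.5, 85.6 and 85.3 CPM with MYC off, a 2.17-fold difference (log2 change -1.12 with SE 0.13, edgeR adjusted p = 2.43e-06). MYC intermediate was spread over 81.8, 63.9 and 48.8 CPM in replicates 1 to 3, so replicate 1 nearly met the MYC off libraries and replicate 3 stood nearer to MYC on. Even so, these libraries overlapped neither group in CPM without the further scaling used in the fits. On a log2 scale from 0 at the MYC on mean to 1 at the MYC off mean, replicate 1 stood at 1.01. It thus lay past the MYC off mean there, and the lack of overlap with MYC off depends on the scale. MYC on against MYC intermediate was called (-0.79 ± 0.13, edgeR adjusted p = 0.000191), and MYC intermediate against MYC off was not (-0.33 ± 0.13, edgeR adjusted p = 0.0556). Without MYC intermediate replicate 1 the latter became -0.55 (edgeR adjusted p = 0.000332).

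A qualification attaches to the Jun family, because the library kit did not mark strand. Exons of Jund share 877 bases with those of the antisense gene Gm11175, so reads of the pair cannot be told apart there, and how the counting assigned them is not given. Gm11175 counted 33.6, 34.2 and 36.8 CPM with MYC on, 77.9, 62.1 and 48.9 CPM at intermediate MYC and 75.9, 74.9 and 75.2 CPM with MYC off, with the same replicate order in MYC intermediate as Jund. Its log2 fold change of MYC on over MYC off was -1.08 ± 0.13 (edgeR adjusted p = 1.85e-06). Junb shares 173 exonic bases with Prdx2, a peroxiredoxin gene at 158.4 ± 10.3, 147.8 ± 9.01 and 140.2 ± 6.65 CPM in the 3 groups. Jun shares 232 bases with the antisense gene Junos, which stayed between 0.681 and 1.30 CPM, and Dusp1 shares 11 bases with Ergic1.

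Egr1 showed the largest fold change among the members. The gene (ENSMUSG00000038418.7, chromosome 18, 34859823 to 34864984, plus strand) had 1.43, 1.76 and 1.30 CPM with MYC on, 3.60, 2.89 and 3.00 CPM at intermediate MYC and 5.42, 5.01 and 4.53 CPM with MYC off. No 2 groups overlapped. It was 3.31-fold higher in MYC off than in MYC on (log2 change -1.72 with SE 0.18, edgeR adjusted p = 6.42e-07), and 7.50% of the genes tested had a larger absolute log2 fold change. Both steps were called, at -1.11 ± 0.19 for MYC on against MYC intermediate (edgeR adjusted p = 0.000202) and -0.61 ± 0.16 for MYC intermediate against MYC off (edgeR adjusted p = 0.00717). The second of these rests on few counts, with 280 in MYC intermediate and 493 in MYC off, and it was no longer called in 5 of the 9 fits that left out 1 library (MYC on replicate 1, MYC intermediate replicate 2 or 3, MYC off replicate 1 or 2), where its adjusted p ran from 0.0108 to 0.0350 (edgeR). DESeq2 (adjusted p = 0.0129), a fit of only the 6 libraries compared (edgeR adjusted p = 0.0112) and thinning to the shallowest library (edgeR adjusted p = 0.0261) also lost it.

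Nr4a1, also called Nur77 and widely used as a reporter of T cell receptor signalling, also rose. Its levels (ENSMUSG00000023034.6, chromosome 15, 101254269 to 101274795, plus strand) were 16.2, 12.1 and 16.4 CPM with MYC on, 18.1, 21.0 and 21.9 CPM at intermediate MYC and 20.5, 24.8 and 22.6 CPM with MYC off. MYC on lay below the other groups, which overlapped each other. MYC off exceeded MYC on 1.47-fold (log2 change -0.56 with SE 0.12, edgeR adjusted p = 0.000704). MYC on against MYC intermediate gave -0.45 ± 0.12 (edgeR adjusted p = 0.00603), a call that was lost without MYC on replicate 2, MYC intermediate replicate 2 or MYC intermediate replicate 3 (-0.42 to -0.32, edgeR adjusted p = 0.0191 to 0.0322), in a fit of only the 6 libraries compared (edgeR adjusted p = 0.0108) and after thinning to the shallowest library (edgeR adjusted p = 0.0126). MYC intermediate and MYC off differed by -0.11 (95% interval -0.35 to 0.14, edgeR adjusted p = 0.498).

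Dusp1 rose at both steps of MYC withdrawal. This MAP kinase phosphatase gene (ENSMUSG00000024190.6, chromosome 17, 26505590 to 26562128, minus strand) held 11.4, 12.2 and 12.0 CPM with MYC on, 22.1, 21.6 and 21.8 CPM at intermediate MYC and 31.2, 34.0 and 33.9 CPM with MYC off. The 3 groups stood well apart. MYC off exceeded MYC on 2.72-fold (log2 change -1.44 with SE 0.08, edgeR adjusted p = 2.61e-10). The steps were -0.89 ± 0.08 from MYC on to MYC intermediate (edgeR adjusted p = 3.15e-07) and -0.55 ± 0.07 from MYC intermediate to MYC off (edgeR adjusted p = 3.18e-05). Its promoter, printed above, was the only one of the 8 that held both the full CRE and the E-box.

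The paralogues Ier2 and Ier5 encode nuclear proteins of the IER family, and both were among the more abundant members. Ier5 (ENSMUSG00000056708.5, chromosome 1, 155096361 to 155099636, minus strand) fell as MYC was withdrawn, from 70.5, 67.8 and 67.1 CPM with MYC on through 57.0, 55.8 and 55.0 CPM at intermediate MYC to 48.1, 48.3 and 50.6 CPM with MYC off. No library of 1 group reached into another. The log2 fold change of MYC on over MYC off was 0.52 ± 0.06 (edgeR adjusted p = 2.76e-06), a 1.43-fold difference. The 2 steps were 0.28 ± 0.06 (edgeR adjusted p = 0.00169) and 0.24 ± 0.06 (edgeR adjusted p = 0.00771). Leaving out MYC on replicate 1 ended the call of the former (edgeR adjusted p = 0.0120), and the latter was called in only 1 of the 9 fits that left out a library, the one without MYC on replicate 3 (the others gave 0.0107 to 0.0323, edgeR). Ier2 (ENSMUSG00000053560.4, chromosome 8, 84661331 to 84662852, minus strand) stood at 21.8, 18.02 and 20.0 CPM with MYC on, 19.7, 18.8 and 16.6 CPM at intermediate MYC and 17.8, 16.3 and 16.1 CPM with MYC off. Its MYC on and MYC off libraries did not overlap in CPM, but only narrowly, at 18.02 in MYC on replicate 2 against 17.79 in MYC off replicate 1. The scaling used in the fits divides these by 1.009 and 0.994, which draws them together, so the separation is not secure. The log2 fold change of 0.28 ± 0.10 was not called (edgeR adjusted p = 0.0253).

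**Figure D2:**
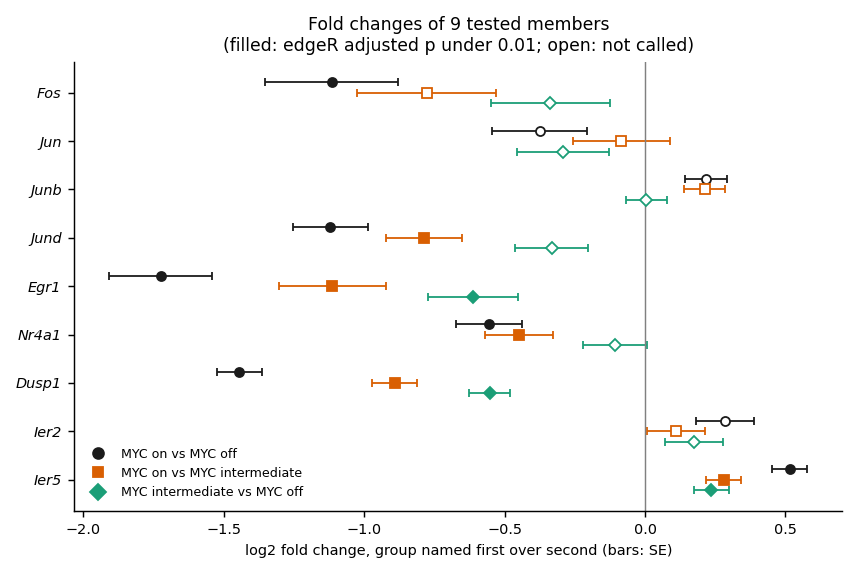
Log2 fold change (horizontal axis, group named first over second, bars ± SE) of the 9 tested members in the 3 comparisons, filled where the edgeR adjusted p was under 0.01. Egr1, Dusp1, Jund, Fos and Nr4a1 lie to the left of 0 in all comparisons, and Ier5 lies to the right with 0.52, 0.28 and 0.24.

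At 20 pg/mL doxycycline, where 32.4% of the MYC on transgene level remained, 5 of the 9 tested members were already called against MYC on (34.6% of all genes tested were), with 4 lower in MYC on (Egr1, Dusp1, Jund and Nr4a1; 17.4% of all genes tested were) and Ier5 higher (17.2%). The further fall of the transgene to 0.3% called 3 of the 9 (24.7% of all genes tested), namely Dusp1 and Egr1 upward (9.95%) and Ier5 downward (14.7%). At an adjusted p under 0.05 these numbers were 7 (46.1% of all genes tested) and 3 (37.2%). The groups did not overlap for 7 of the 9 from MYC on to MYC intermediate (53.5%) and for 4 of the 9 from MYC intermediate to MYC off (47.6%). Overlap was again judged on CPM without the scaling used in the fits. These comparisons share the MYC intermediate libraries. On a log2 scale that runs from 0 at the MYC on mean to 1 at the MYC off mean, MYC intermediate stood at 0.54 ± 0.08 for Ier5, 0.62 ± 0.02 for Dusp1, 0.64 ± 0.11 for Egr1, 0.67 ± 0.34 for Jund, 0.69 ± 0.15 for Fos and 0.81 ± 0.23 for Nr4a1 (SD, n = 3 each). The transgene stood at 0.19 ± 0.01 on the same scale. On the linear CPM scale the transgene had covered 67.8% of its change, and the members 47.0% (Dusp1), 47.7% (Egr1), 57.4% (Fos), 57.8% (Jund), 64.4% (Ier5) and 70.4% (Nr4a1). The order of transgene and members therefore depends on the scale chosen.

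**Figure D3:**
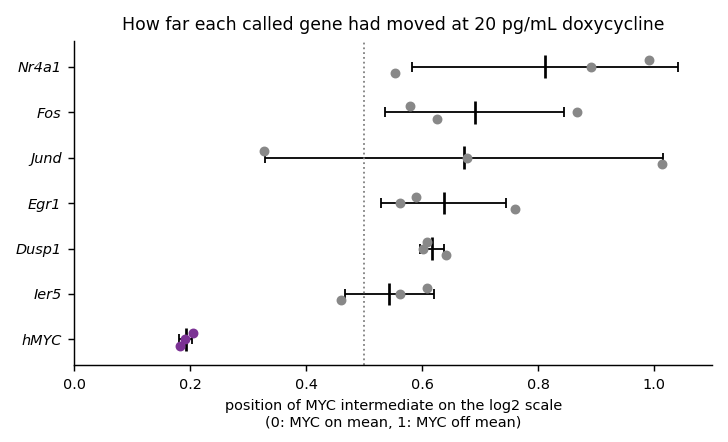
Position of each MYC intermediate library (points) on the log2 scale between the MYC on mean (0) and the MYC off mean (1), with the mean and SD, for the 6 members called between MYC on and MYC off and for the human transgene (hMYC). The members average 0.54 to 0.81, whereas the transgene averages 0.19.

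MYC intermediate was also compared with the midpoint of the other groups on the log2 scale. No tested member departed from it at an adjusted p under 0.01 by edgeR or DESeq2, against 1.89% of all genes tested by edgeR (1.7% above and 0.184% below), nor at an adjusted p under 0.05 (5.12%), and 1 of the 9 (Dusp1) had an unadjusted p under 0.05. Dusp1 lay 0.17 ± 0.07 above its midpoint (edgeR adjusted p = 0.159). Fos, Jund, Egr1, Nr4a1 and Ier2 also lay above theirs, at 0.22, 0.23, 0.25, 0.17 and 0.03, with Junb, Jun and Ier5 at -0.10, -0.10 and -0.02. Without MYC intermediate replicate 3, Jund was called (0.40).

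Levels of different members were compared as TPM, which divide by transcript length. Jund led at every MYC level, with 76.5 ± 2.85 TPM in MYC on, 128.5 ± 30.2 TPM in MYC intermediate and 169.6 ± 5.77 TPM in MYC off. Ier5 followed at 70.4 ± 1.65, 56.6 ± 0.234 and 50.1 ± 2.08 TPM. In MYC on this lead was narrow, with 73.3 TPM in the lowest Jund library and 72.1 TPM in the highest Ier5 library. How reads in the bases shared with Gm11175 were counted is not known, so the first rank of Jund in MYC on is not secure. Next in MYC on came Junb (48.2 ± 1.17 TPM) and Ier2 (44.1 ± 3.92 TPM), which overlapped, then Nr4a1 (20.3 ± 3.14 TPM), Dusp1 (14.8 ± 0.612 TPM) and Jun (3.55 ± 0.471 TPM). Egr1 (1.12 ± 0.189 TPM) and Fos (1.11 ± 0.126 TPM) overlapped at the bottom, above Fosb (0.0693 ± 0.0612 TPM). Dusp1 moved past Nr4a1 and Ier2 in MYC off, at 41.0 ± 2.53 TPM, where it overlapped Junb (42.3 ± 2.38 TPM) above it and Ier2 (36.8 ± 1.46 TPM) below it.

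The make-up of the Jun family was read from TPM. Jund supplied 61.0%, 58.7% and 59.2% of the summed TPM of Jun, Junb and Jund in MYC on, next to 78.2%, 73.7% and 69.6% at intermediate MYC and 78.6%, 78.8% and 77.5% with MYC off. Junb supplied 37.6% ± 1.22, 24% ± 3.89 and 19.5% ± 0.596 (SD, n = 3 each). Jun contributed little throughout, at 2.76% ± 0.308, 2.21% ± 0.50 and 2.20% ± 0.271. The share of Jund was 18.7 percentage points higher in MYC off than in MYC on without overlap, with an exact two-sided permutation p of 0.1, the lowest possible here (adjusted p = 0.263 over 21 such comparisons of shares). The summed level of the family was 128.3 ± 3.04, 172.9 ± 30.7 and 216.7 ± 8.41 TPM in the 3 groups. How reads in the bases that Jund shares with Gm11175 were counted is not known.

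**Figure D4:**
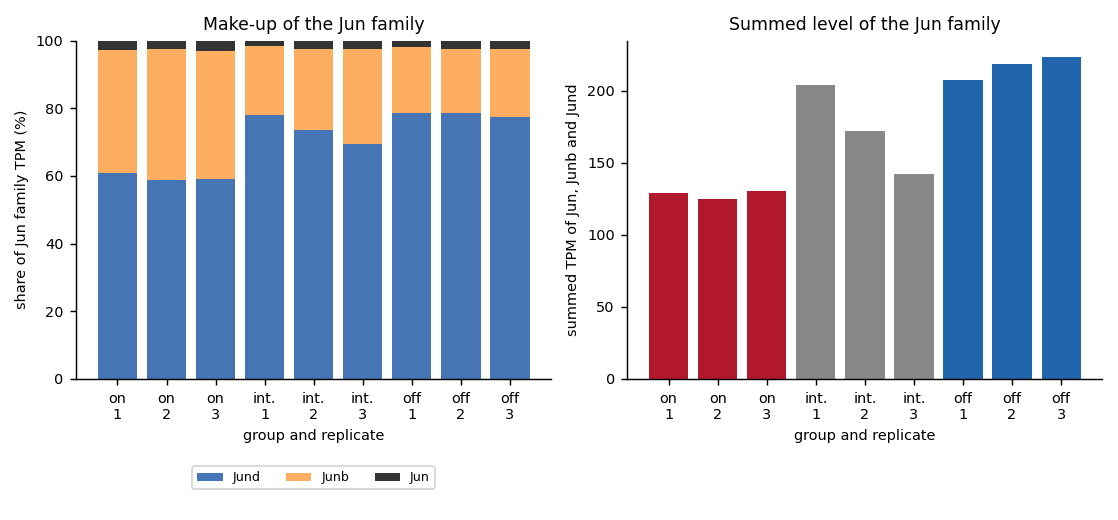
Left, share of the summed TPM of Jun, Junb and Jund that each gene supplied in each library (vertical axis from 0 to 100%). Right, that summed TPM from 0, coloured by group, where Jund holds 59.6% of 128.3 TPM on average in MYC on and 78.3% of 216.7 TPM in MYC off.

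The Fos family was scarce by comparison, with a sum over Fos, Fosb, Fosl1 and Fosl2 of 1.82 ± 0.212, 2.495 ± 0.231 and 3.33 ± 0.464 TPM in the 3 groups. Fos supplied 61.8% ± 11.8, 74.8% ± 3.84 and 74.5% ± 3.19 of it, and the groups overlapped. Fosl1 (78 counts in all) and Fosl2 (13 counts) had few counts too, and Fosl1 supplied 32.0% ± 16.6, 20.2% ± 3.54 and 20.3% ± 2.80 of the sum against 3.86% ± 3.59, 4.87% ± 1.15 and 4.83% ± 0.820 for Fosb.

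Within MYC intermediate and MYC off, 1 library stood to a side in many members. MYC intermediate replicate 1 had the highest CPM of its group in 6 of the 9 tested members (Junb, Jund, Egr1, Ier2, Ier5 and Dusp1). MYC off replicate 1, the deepest library, had the lowest in 7 of the 9 (all but Egr1 and Ier2). These ranks are of CPM before the scaling used in the fits (TMM). Its factors were 0.994, 1.032 and 1.030 for MYC off replicates 1 to 3. Dividing by them lowers replicates 2 and 3 relative to replicate 1. The parts of depth and of this scaling in the ranks were not tested. Without MYC off replicate 1 the number of members called between MYC on and MYC off stayed at 6. It also stayed at 6 without MYC intermediate replicate 1, which is not among the libraries compared there, so that fit tests little. Between MYC intermediate and MYC off, 1 member in place of 3 was called without MYC off replicate 1. Without MYC intermediate replicate 1 that number stayed at 3, with Jund gained and Ier5 lost.

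Members differed in which other genes they resembled. Likeness was measured as the root mean square difference of log2 levels over the 9 libraries, each gene centred on its own mean, across 8989 protein-coding genes. Nearest to Jund was Thy1, a T cell surface glycoprotein (0.0548 log2 units), followed by Anapc11 (0.0722) and Ap1s2 (0.0972). Dusp1 lay nearest to Celf2 (0.0475), an RNA-binding protein gene, Rbl2 (0.0487), a pocket protein gene of the retinoblastoma family, and Arl4c (0.0642). Nearest to Nr4a1 was Fyn, a Src family kinase gene, at 0.0991. Ier5 lay nearest to Metap1 (0.0359) and Cyb5b (0.0374), Junb to Dcp1a (0.0349), Amer1 (0.0406) and Atp8a1 (0.0419), and Ier2 to Polr2g (0.0460), Kcnab2 (0.0473) and Cox4i1 (0.0485). Within the members the closest pairs were Junb with Ier2 (0.118) and Egr1 with Dusp1 (0.128), and the most distant pair was Egr1 with Ier5 (0.808). The 9 points share library depth and group, and these distances are descriptions.

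Related genes were read from lists written for this purpose, with earlier results of these data known. The counts of calls below stand against 54.9% of all genes tested, 27.4% higher and 27.5% lower in MYC on, and against a median of -0.03. Of 37 other immediate-early genes, 29 were tested, of which 23 were called lower and 4 higher in MYC on than in MYC off, with a median log2 fold change of -1.03. Cd69, an early activation marker of T cells, stood at 0.895 ± 0.259 CPM with MYC on and 7.61 ± 0.639 CPM with MYC off (log2 change -2.99 ± 0.19, edgeR adjusted p = 1.51e-09). Arc (-1.80 ± 0.09, edgeR adjusted p = 1.73e-10) and Nfkbiz, an atypical IκB gene (-1.64 ± 0.22, edgeR adjusted p = 9.03e-06), rose too as MYC was withdrawn. Sik1, a salt-inducible kinase gene induced through CREB, went the opposite way at 2.54 ± 0.24 (edgeR adjusted p = 1.43e-07). Trib1 (1.26), Rhob (1.32) and Bhlhe40 (0.85) were the other genes called higher in MYC on, and are named after their values were seen.

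The remaining AP-1 genes include the Fos family genes Fosl1 and Fosl2 beside BATF, JDP2, ATF and MAF genes. Of 12 genes 8 were tested, of which 4 were higher in MYC on and 1 lower, where 27.4% and 27.5% of all genes tested were, with a median log2 fold change of 0.44. The small MAF genes Mafg (1.33 ± 0.11, edgeR adjusted p = 4.27e-08) and Mafk (0.86 ± 0.07, edgeR adjusted p = 4.60e-08) were higher in MYC on, with Batf2 (0.85) and Atf2 (0.24). Batf, a partner of Jun proteins in T cells, rose from 0.125 ± 0.050 CPM with MYC on to 1.75 ± 0.506 CPM with MYC off (-3.83 ± 0.49, edgeR adjusted p = 5.32e-06) and is named after its value was seen.

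The EGR relatives of Egr1 were little expressed. Egr2 had 27 counts over the 9 libraries, Egr3 had 1 and Egr4 had 0. Of the 4 tested genes of this list, Nab1, a corepressor of EGR proteins, was called (0.36 ± 0.08, edgeR adjusted p = 0.000750). Nr4a2 and Nr4a3 gave 0.35 ± 0.19 and 0.06 ± 0.60 and were not called, at edgeR adjusted p of 0.128 and 0.939.

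Upstream of the members, 14 SRF and CREB factors and coactivators were tested, with 7 lower in MYC on, 0 higher and a median of -0.35. Mrtfa, a coactivator of SRF (-0.74 ± 0.07, edgeR adjusted p = 1.95e-07), Crtc3, a coactivator of CREB (-0.67 ± 0.10, edgeR adjusted p = 2.36e-05), Elk4, an ETS partner of SRF (-0.57 ± 0.08, edgeR adjusted p = 1.86e-05), and Creb1 (-0.55 ± 0.07, edgeR adjusted p = 3.06e-06) rose upon MYC withdrawal. Srf itself was at 0.17 ± 0.10 (edgeR adjusted p = 0.153). Of 25 tested genes of the MAP kinase cascade 8 were lower and 2 higher (Hras at 0.46 and Map2k4 at 0.31) and 15 were not called, with a median of -0.06. Rasgrp1, the Ras activator downstream of the T cell receptor, went from 492.3 ± 6.25 to 999.8 ± 33.4 CPM (-0.99 ± 0.05, edgeR adjusted p = 7.85e-11). Mapk11 (-1.22), Map3k1 (-0.73) and Grb2 (-0.57) rose as well.

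The phosphatases that switch MAP kinases off, to which Dusp1 belongs, and their Sprouty and Spred relatives in feedback were divided. Of 13 tested genes besides Dusp1, 6 were lower and 4 higher in MYC on, with a median of -0.67. Dusp6, the ERK phosphatase induced by ERK signalling, rose from 1.955 ± 0.164 CPM through 5.93 ± 0.449 CPM to 12.2 ± 0.876 CPM (MYC on over MYC off -2.60 ± 0.14, edgeR adjusted p = 2.11e-10). Dusp10, a phosphatase of JNK and p38, did so at -1.96 ± 0.10 (edgeR adjusted p = 1.21e-10), and Spred2 at -1.23 ± 0.12 (edgeR adjusted p = 2.01e-07). Dusp7, an ERK phosphatase of the same subgroup as Dusp6, fell from 27.6 ± 1.28 CPM to 5.63 ± 0.572 CPM (2.33 ± 0.10, edgeR adjusted p = 1.37e-11). Dusp2 (0.74), Dusp9 (1.22) and Dusp14 (1.51) were also higher in MYC on.

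**Figure D5:**
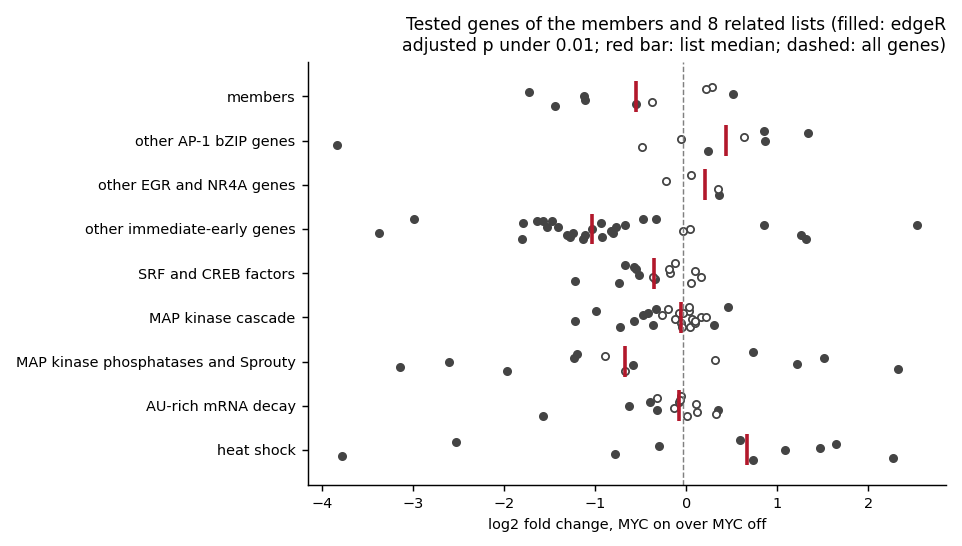
Log2 fold change of MYC on over MYC off (horizontal axis) for each tested gene of the members and of 8 related lists (rows), filled where the edgeR adjusted p was under 0.01, with list medians as red bars and the median of all genes tested dashed. Other immediate-early genes lie mostly left of 0 with a median of -1.03, as do the members at -0.56, and other AP-1 genes lie mostly to the right with a median of 0.44.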

How the data were processed

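RNA was sequenced in 9 libraries of mouse T-ALL cells, 3 each of MYC on, MYC intermediate and MYC off. Reads were trimmed, aligned and counted with cutadapt 1.16, STAR 2.5.4b and featureCounts on mm10, as named in the submitters' processing notes, and the annotation and strand setting are not given in the sources used here. The authors deposited per library raw read counts per gene, a score equal to counts per kilobase, FPKM, TPM and a fraction that ranks each gene in its library. Counts were tested in R 4.3.3 with edgeR 4.0.16 (quasi-likelihood test, TMM scaling, default count filter, all 9 libraries in 1 fit, group as the only term, two-sided, Benjamini-Hochberg adjustment over all 14098 genes). The call threshold was an adjusted p of 0.01. DESeq2 1.42.0 was an alternative. TPM as deposited served to compare genes within a library, and CPM were computed from counts. The fraction, score and FPKM columns served only to check the deposited files. GENCODE M21 (the same build) matched 53274 of 53380 identifiers. Python 3.11.15 was used for the summaries, for exact permutation tests on log2(CPM + 0.5) and for figures. The SE is the log2 fold change over the root of F. The code was tested on simulated data.

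The labels do not say that replicates were separate cultures, so p-values measure the spread between these libraries, which may be technical. To check the pairing, deviations from the group means were correlated over 9946 genes. Replicates 1 to 3 of MYC on followed those of MYC off (r = 0.384, 0.261 and 0.227) but not all of MYC intermediate (0.134, -0.186 and -0.167), nor did all of MYC intermediate follow MYC off (0.374, 0.032 and 0.084), and the labels give no meaning to the numbers. The members and the 14 gene lists (176 genes) were chosen with earlier results of these data known. Named genes are all members, hMYC, per list up to 4 called genes with the largest change between MYC on and MYC off and at least 5 CPM in 1 group, and the 3 most similar protein-coding genes of each tested member with a mean of at least 5 CPM. A few genes that this rule or the marker lists hold are not reported here.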

Additional observations from a re-analysis of the deposited data

How the results depend on the processing

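The members called numbered 6, 5 and 3 for MYC on against MYC off, MYC on against MYC intermediate and MYC intermediate against MYC off. Leaving out 1 library at a time gave 6 to 6, 4 to 5 and 1 to 3, and 0 to 1 for the departure of MYC intermediate from its midpoint (1 without MYC intermediate replicate 3). For MYC intermediate against MYC off, a fit of only the 6 libraries compared gave 1, and DESeq2, library size only and thinning to the shallowest library each gave 2. The count was also 1 without MYC on replicate 1, MYC intermediate replicate 2 or 3, or MYC off replicate 1 or 2, where Dusp1 was the member still called. With the replicate number as a block the pairing changed no member's call and the counts stayed 6, 5, 3 and 0. An adjusted p under 0.05 called 8, 7 and 3. With raw counts in place of TPM, the share of Jund in the Jun family gained 20.5 percentage points in place of 18.7, and that of Junb changed by -19.8 in place of -18.1. Leaving out 1 library gave 18.2 to 19.3 and -18.7 to -17.5 percentage points for these.

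Over 17 alternatives for each of the 3 comparisons, 423 of 459 member values kept direction and side of the threshold, 25 lost the call, 3 gained it and 8 changed sign. All 8 belong to differences near 0 that were not called. They are Jun in MYC on against MYC intermediate (-0.21 to 0.043 without 1 library, above 0 at 0.0072 without MYC on replicate 2 and 0.043 without MYC intermediate replicate 2) and Junb in MYC intermediate against MYC off, at -0.040 with library size only, -0.0018 with RLE size factors, -0.00046 with a filter of 1 CPM in 3 libraries, and -0.026, -0.0061 and -0.0075 (of a range from -0.026 to 0.041) without MYC intermediate replicate 1, MYC intermediate replicate 2 and MYC off replicate 2. The 3 gains were Junb between MYC on and MYC off with only the 6 libraries compared (0.24) and Jund between MYC intermediate and MYC off with no count filter (-0.31) or without MYC intermediate replicate 1 (-0.55). The cause of these shifts was not tested. Depth limits Fosb, Fos and Egr1 most, with 58, 337 and 873 counts over the 9 libraries.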

Other observations

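Heat shock genes, which stress can induce alongside the immediate-early genes, were called in both directions. Of 10 tested genes 6 were higher and 4 lower in MYC on than in MYC off (27.4% and 27.5% of all genes tested were), with a median log2 fold change of 0.66. The chaperone genes Hspe1 (67.8 ± 6.70 CPM with MYC on and 14.3 ± 1.43 CPM with MYC off, log2 change 2.27 ± 0.13, edgeR adjusted p = 4.19e-10), Hsph1 (1.65 ± 0.06, edgeR adjusted p = 4.43e-12), Hsp90aa1 (1.47 ± 0.07, edgeR adjusted p = 3.98e-11) and Hspa8 (1.08 ± 0.06, edgeR adjusted p = 3.53e-10) fell as MYC was withdrawn, as did Bag3 (0.73) and Hsf1 (0.59). The 4 called in the other direction were Hspa1a (-3.78), Hspa1b (-2.53), Dnajb1 (-0.79) and Dnaja1 (-0.29), named, like Bag3 and Hsf1, after their values were seen. The near-identical pair Hspa1a and Hspa1b, the classic inducible chaperone genes, share reads and had only 88 and 193 counts over the 9 libraries, so their separate values are uncertain.

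Immediate-early mRNAs carry AU-rich elements that RNA-binding proteins use to speed or slow their decay. Of 14 tested genes of this machinery 4 were lower and 1 higher in MYC on and 9 were not called (54.9% of all genes tested were called), with a median log2 fold change of -0.08. The decay factor genes Zfp36l1 (-0.40 ± 0.10, edgeR adjusted p = 0.00185) and Zfp36l2 (-0.32 ± 0.07, edgeR adjusted p = 0.000741) and Tia1 (-0.62 ± 0.06, edgeR adjusted p = 1.57e-07) rose as MYC was withdrawn. Elavl1, whose product HuR stabilises such mRNAs, fell (0.35 ± 0.07, edgeR adjusted p = 0.000689). Zfp36, counted also among the other immediate-early genes and named after its value was seen, rose from 0.798 ± 0.285 CPM with MYC on to 2.40 ± 0.335 CPM with MYC off (-1.57 ± 0.27, edgeR adjusted p = 0.000117).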
